A study of Homo sapiens with 18 samples.

Results

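The exon parts described here are the probe sets of an exon array whose IDs carry the chromosome codes 2 and 18. An exon part is a stretch of an exon that is measured by a probe set of its own. Members had a mean of at least 5 on the log2 scale over the 9 exon-level arrays. That rule kept 20555 of 45605 exon parts of code 2 and 3129 of 6900 of code 18, which makes 23684 members among 533139 exon parts of codes 1 to 22. The cells were MDA-MB-231, a human line of triple-negative breast cancer, grown in a standard medium with serum. For control replicates 2 and 3 the labels disagree on the line, since 1 field ends its name in a different digit and 2 others write MDA-MB-231. The groups were 231T (cells given a vector for TRA2A, a splicing regulator), PTX (cells whose medium held paclitaxel, which stabilises microtubules, at 10 nM) and control cells, with 3 arrays each. The labels do not say how long the drug was given, whether control cells received an empty vector, or whether 231T cells were 1 clone. Gene-level values, with 1 record per gene or transcript cluster, are given under the titles of the same arrays. They are another summary of those arrays and no independent evidence, and they are used beside the exon parts. Whether the arrays of a group stand for separate cultures is not labelled, and p-values here reflect only how far arrays differ, a spread that may be technical.

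Codes 2 and 18 were selected on their medians in 231T minus control, which were known to be high, and members within them were chosen by their mean level. All 231T differences of the members are therefore a description. Where features are counted as called in 231T cells, the count says how many passed limma's adjusted p of 0.05 over the whole table, and it is no evidence about the codes, since the selection used the same contrast. PTX cells were compared with control cells by limma, with p-values adjusted over the whole table. Both comparisons share the control arrays.

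Exon arrays read many places along each transcript, so a gene whose RNA changes as a whole shifts in most of its exon parts, while a change in splicing or in the start or end of a transcript shifts some of them. TRA2A is a serine/arginine-rich-like protein that binds exons and usually favours their inclusion. Chromosomes 2 and 18 are poorer in genes than chromosomes such as 17, 19 and 22. Among their genes are RRM2, which supplies deoxyribonucleotides, MCM6, a subunit of the replicative helicase, TYMS, which makes thymidylate, NDC80, which links kinetochores to microtubules, and FN1, a protein of the extracellular matrix.

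The probe sequences of the exon parts are not in the sources used here. Promoters of 4 genes of the mitosis and replication list are shown, picked after their values were seen. These genes lay higher in both cultures than in control cells, in the medians of their exon parts. By that measure 6 of the 10 genes of the list were above 0 in PTX minus control and 8 in 231T minus control. The promoters are RefSeq sequences of GRCh38.p14, written 5′ to 3′ along the gene, from 250 bases before to 50 bases after the start. Capitals mark CCAAT, TTTNNCGC (a form of the E2F site) and TTTGAA (a form of the cell cycle homology region), searched on both strands. RRM2 lies at chr2:10122489-10122788 on the plus strand, MCM6 at chr2:135876394-135876693 on the minus strand, TYMS at chr18:657403-657702 on the plus strand and NDC80 at chr18:2571307-2571606 on the plus strand.
RRM2: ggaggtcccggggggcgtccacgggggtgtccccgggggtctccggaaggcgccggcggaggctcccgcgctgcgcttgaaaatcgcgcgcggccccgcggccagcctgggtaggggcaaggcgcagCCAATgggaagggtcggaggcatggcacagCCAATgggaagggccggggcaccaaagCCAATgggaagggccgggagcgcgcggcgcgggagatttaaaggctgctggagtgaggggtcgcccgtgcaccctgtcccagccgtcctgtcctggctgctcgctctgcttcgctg
MCM6: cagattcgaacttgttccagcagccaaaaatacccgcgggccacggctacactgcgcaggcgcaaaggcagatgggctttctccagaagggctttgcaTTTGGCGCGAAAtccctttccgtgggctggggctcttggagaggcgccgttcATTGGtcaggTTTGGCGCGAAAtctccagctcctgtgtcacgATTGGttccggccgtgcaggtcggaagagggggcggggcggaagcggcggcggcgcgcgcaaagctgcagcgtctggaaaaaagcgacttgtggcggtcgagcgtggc
TYMS: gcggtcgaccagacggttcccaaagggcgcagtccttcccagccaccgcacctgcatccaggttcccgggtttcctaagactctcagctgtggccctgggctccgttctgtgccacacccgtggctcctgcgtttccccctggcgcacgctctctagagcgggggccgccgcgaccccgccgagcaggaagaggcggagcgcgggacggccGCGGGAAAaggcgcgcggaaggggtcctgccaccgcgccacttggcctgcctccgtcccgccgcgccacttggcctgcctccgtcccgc
NDC80: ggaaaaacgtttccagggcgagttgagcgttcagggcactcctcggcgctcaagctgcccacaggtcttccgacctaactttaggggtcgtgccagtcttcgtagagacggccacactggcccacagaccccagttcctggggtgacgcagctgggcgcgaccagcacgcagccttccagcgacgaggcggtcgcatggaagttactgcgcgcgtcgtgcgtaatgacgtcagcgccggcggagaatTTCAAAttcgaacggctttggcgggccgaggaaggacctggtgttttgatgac
RRM2 had 3 CCAAT matches, MCM6 had 2 CCAAT matches and 4 overlapping matches of TTTNNCGC, TYMS had 1 match of TTTNNCGC and NDC80 had 1 of TTTGAA. Of all 27305 RefSeq promoters of this length, 35.7% held CCAAT, 6.9% TTTNNCGC and 15.4% TTTGAA. In the 10 promoters of the list, 5, 3 and 3 held them in the same order. A match describes letters in these windows and no binding was measured.

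A gene with a single name was given by the array annotation for 77.0% of the members of code 2 (1219 genes) and 79.8% of those of code 18 (249 genes). All 1406 named genes of code 2 and all 303 of code 18 that RefSeq lists lay on the chromosome of the code. The running number of an ID followed the position of genes on the plus strand first and then on the minus strand (Spearman's rho 0.9957 to 1.0 across genes, which are not independent replicates). Running numbers reached 56695 and 7865, and the highest median number of a named gene was 47688 in code 2 and 6255 in code 18.

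TRA2A was higher in 231T cells on all arrays, with gene-level values of 9.37, 9.42 and 9.19 in 231T cells, 8.32, 7.82 and 7.60 in PTX cells and 6.50, 7.15 and 6.95 in control cells. It also rose in PTX cells relative to control cells (log2 difference 1.02, SE 0.24, limma adjusted p = 0.0464). Markers of this mesenchymal line without hormone receptors were read in the same table. VIM, the intermediate filament of mesenchymal cells, averaged 13.12 ± 0.02, 13.13 ± 0.02 and 13.16 ± 0.03 in 231T, PTX and control cells (SD, n = 3 each). The oestrogen receptor gene ESR1, the progesterone receptor gene PGR and the epithelial cadherin gene CDH1 stayed between 3.43 and 4.13 on all 9 arrays. The surface receptor gene CD44 averaged 11.43 ± 0.28, 10.71 ± 0.21 and 10.46 ± 0.18 in 231T, PTX and control cells. The marker MSN averaged 16.79 ± 0.01, 17.04 ± 0.18 and 17.76 ± 0.37, and the epithelial adhesion gene EPCAM 4.74 ± 0.07, 4.94 ± 0.13 and 4.88 ± 0.06 (SD, n = 3 each). In 231T minus control CD44 was called higher and MSN lower, beside 23.7% higher and 21.3% lower of all records. For the receptor gene ERBB2, which was also to be read, no value is given here.

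The exon-level values of 231T cells and of the other groups were not made alike. Of 2995 probe sets that both deposited tables list, all had the same value (within 0.001) in both tables on the 3 arrays of 231T cells. On the PTX and control arrays only 0.1% to 2.871% did, and the medians of gene-level minus exon-level values were -0.187 to -0.167 (SD 0.324 to 0.333 across probe sets). That offset depended on brightness, with medians of -0.36 for values between 5 and 7 and 0.04 above 14. The offsets of PTX and control arrays resembled each other (r between arrays 0.70 to 0.76 across probe sets). Differences between 231T cells and the others therefore carry an offset of the tables at the exon level, the gene level or both. Which level carries it cannot be told from these values, so neither level is a check of the other. Gene-level values are given beside those of the genes described below where a record above the minimum was read. The windows, MAP3K20 and PSR02052215 are given without a record. How far the offset accounts for the differences of 231T cells was not tested. Some values, such as 19.10 for SNORD82 in a PTX array, exceed the usual range of a single scan, so log2 differences are not read as folds of RNA.

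On centred values, exon parts of codes 2 and 18 lay higher in 231T cells than in control cells. PTX cells did not differ from control cells by more than the spread between arrays. Uncentred medians of exon parts were 4.60, 4.59 and 4.64 in 231T, 4.98, 5.08 and 5.01 in PTX and 5.02, 4.98 and 5.02 in control cells. Without centring the 231T minus control shift was -0.04 for code 2 and -0.03 for code 18. Values printed per array for single exon parts, runs and records are deposited ones, while window medians and differences are centred. After centring each array on its median over all exon parts of codes 1 to 22, the median member of code 2 stood at 2.68, 2.67 and 2.34 in 231T cells, 2.52, 1.97 and 2.17 in PTX cells and 2.16, 2.25 and 2.21 in control cells. For code 18 the values were 2.42, 2.39 and 2.0 in 231T cells, 2.16, 1.62 and 1.83 in PTX cells and 1.85, 1.98 and 1.88 in control cells. The 231T arrays were all above the control arrays in both codes, and the PTX arrays lay on both sides of them. The 231T minus control difference was 0.36 for code 2 and 0.37 for code 18, the third and second highest of 22 codes, below code 5 at 0.45. In the other 20 codes it ran between -0.21 and 0.45 with a median of 0.12. The PTX minus control difference was 0.01 for code 2 and -0.03 for code 18, against -0.19 to 0.03 in the other codes. PTX replicate 1 stood above the other PTX arrays by 0.45 in code 2 and 0.43 in code 18, and replicates 1 and 2 of 231T stood above replicate 3. In bulk RNA, a change in the number of cells that make an RNA and a change per cell cannot be told apart.

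**Figure D1:**
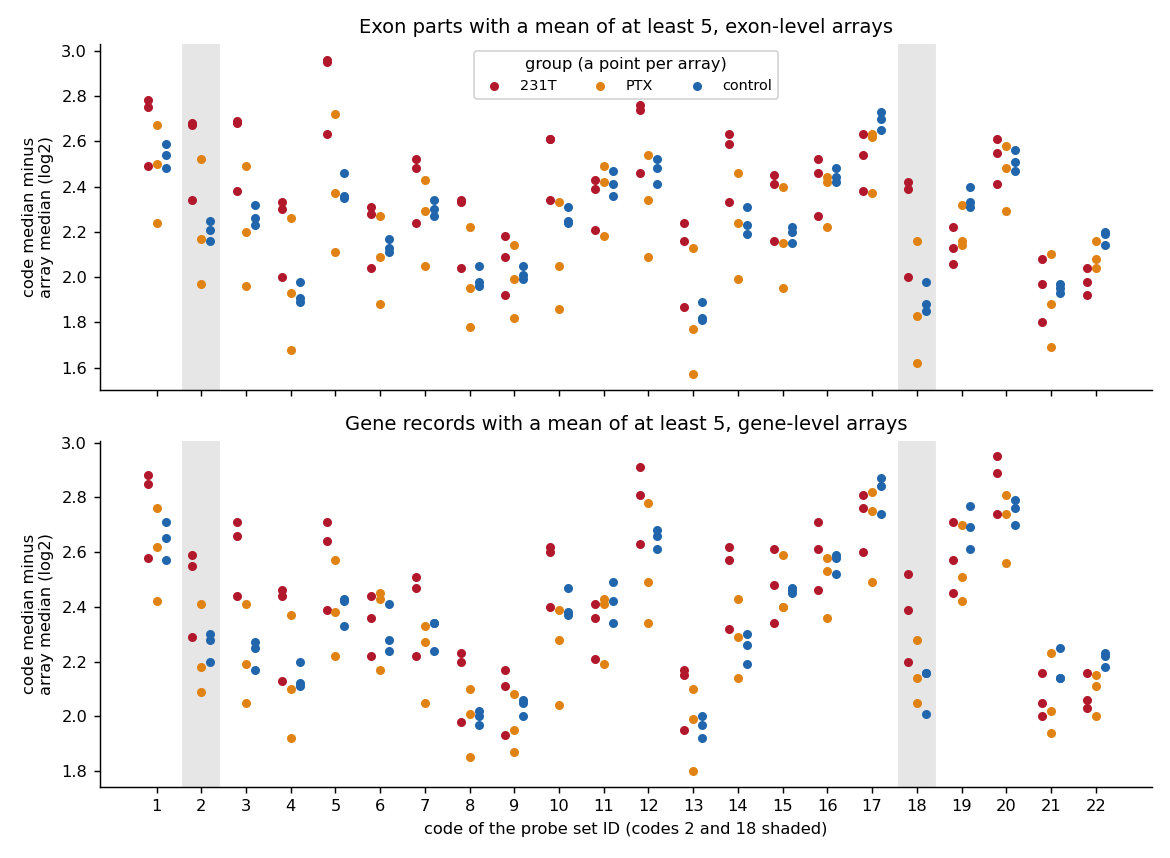
Medians of the exon parts (top) and of the gene-level records (bottom) of each chromosome code, minus the median of the array, on the log2 scale, with a point for each of 3 arrays of 231T, PTX and control cells. In codes 2 and 18 (shaded) the 231T points of the upper panel lie above the control points, and the PTX points spread around them.

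The gene-level table gave smaller differences for 231T cells. Its 1192 records of code 2 with a mean of at least 5 had medians 0.22 higher in 231T than in control cells, and its 252 records of code 18 were 0.26 higher. In code 2 the arrays overlapped, with 2.55, 2.59 and 2.29 in 231T cells and 2.2, 2.28 and 2.3 in control cells. In code 18 they did not, with 2.52, 2.39 and 2.2 in 231T cells and 2.01, 2.16 and 2.16 in control cells. The difference was 0.37 for code 3, the highest, and -0.13 to 0.37 in the 20 other codes. Between PTX and control cells it was -0.04 for code 2 and 0.05 for code 18.

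Brightness went with the size of the shift. Members of code 2 with means of 5 to 7 were 0.07 higher in 231T than in control cells, those of 7 to 10 were 0.50 higher, those of 10 to 14 were 0.65 higher and those above 14 were 0.73 higher. Members of code 18 were 0.17, 0.46, 0.57 and 0.66 higher over the same steps. In the other codes the differences were -0.03, 0.16, 0.20 and 0.30. The gene-level table turned at its bright end, with differences of 0.43 for 68 records of code 2 between 10 and 14 but -0.44 for 26 records above 14. PTX cells stayed within 0.03 of control cells in every step of code 2, and reached -0.28 in the brightest 103 members of code 18, against -0.15 in the other codes. Just above the minimum of 5, the 789 exon parts of code 2 had centred medians of 0.13 in 231T, 0.17 in PTX and 0.16 in control cells, and the 809 just below it had 0.06, 0.05 and 0.08. In code 18 the 147 just above had 0.12, 0.20 and 0.11, and the 124 just below 0.14, 0.08 and -0.02.

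**Figure D2:**
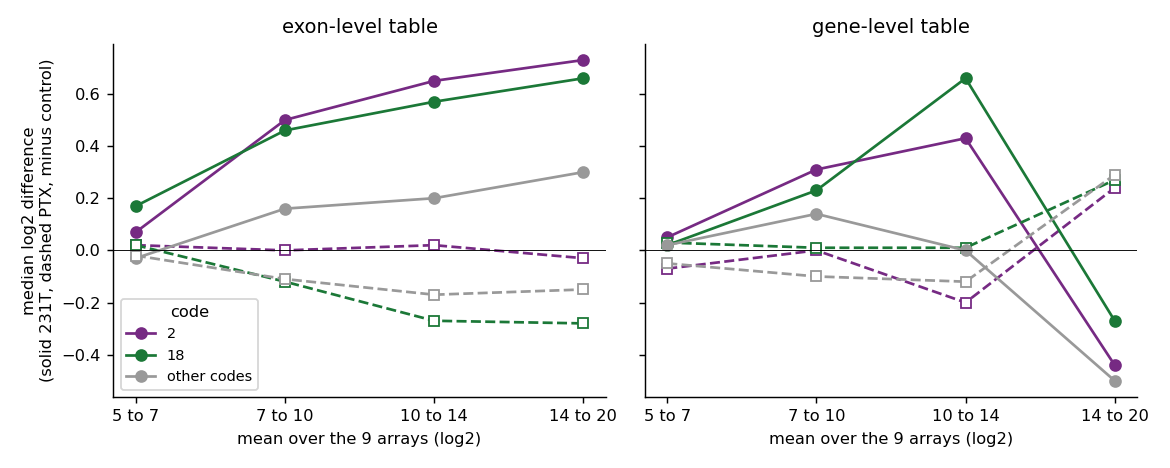
Median log2 difference from control cells (vertical) in 4 steps of mean level (horizontal), for codes 2, 18 and the 20 other codes, in the exon-level (left) and gene-level (right) tables. Solid lines are 231T and dashed lines PTX. The exon-level lines of 231T climb to 0.73 and 0.66 in codes 2 and 18, and all gene-level lines of 231T fall below 0 above 14.

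Along the running number the shift of 231T cells was spread over many stretches of both codes. Of 103 windows of 200 consecutive members of code 2, 79 were above 0 in 231T minus control, and 14 of 16 windows of code 18 were. The window differences ran from -0.52 to 1.28 in code 2 and from -0.13 to 0.86 in code 18. The highest of code 2 reached from HSPE1, a mitochondrial chaperonin, to CFLAR, an inhibitor of caspase-8, with medians of 3.84, 3.93 and 3.61 in 231T, 3.0, 2.30 and 2.84 in PTX and 2.49, 2.50 and 2.54 in control cells. The lowest ran from DIS3L2, an exoribonuclease, to ATG16L1, an autophagy protein, with 2.25, 2.06 and 1.76 in 231T, 2.55, 2.41 and 2.53 in PTX and 2.51, 2.59 and 2.54 in control cells. In code 18 the highest window held the first members, from ROCK1P1 to MTCL1, with 4.0, 4.18 and 3.66 in 231T, 3.98, 2.79 and 3.15 in PTX and 3.16, 3.05 and 3.06 in control cells. In 231T minus control 45 windows were called higher and 4 lower (41.2% of 119), beside 36.1% of all 1256 windows (21.1% higher, 15.0% lower), and nothing is read from that share because the codes were chosen on this contrast. With an array left out, the count of 49 was 12 for 231T replicate 2 and for control replicate 1, 15 for control replicate 3, 16 for 231T replicate 1 and 24 for control replicate 2. In 231T minus PTX 33 windows were called higher and 2 lower, beside 18.8% and 7.25% of all. That count of 35 was 2 without PTX replicate 3, 3 and 5 without 231T replicates 2 and 1, 20 without PTX replicate 2 and 70 without PTX replicate 1. Taking the genes of both strands in their order on the chromosome, in groups of 40, the medians of plus-strand and minus-strand genes of code 2 had the same sign in 13 of 21 groups and correlated at r = 0.09. In groups of 20 in code 18 they had the same sign in 4 of 7 and correlated at r = -0.62. Groups are not independent replicates, and both values of r are descriptions.

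**Figure D3:**
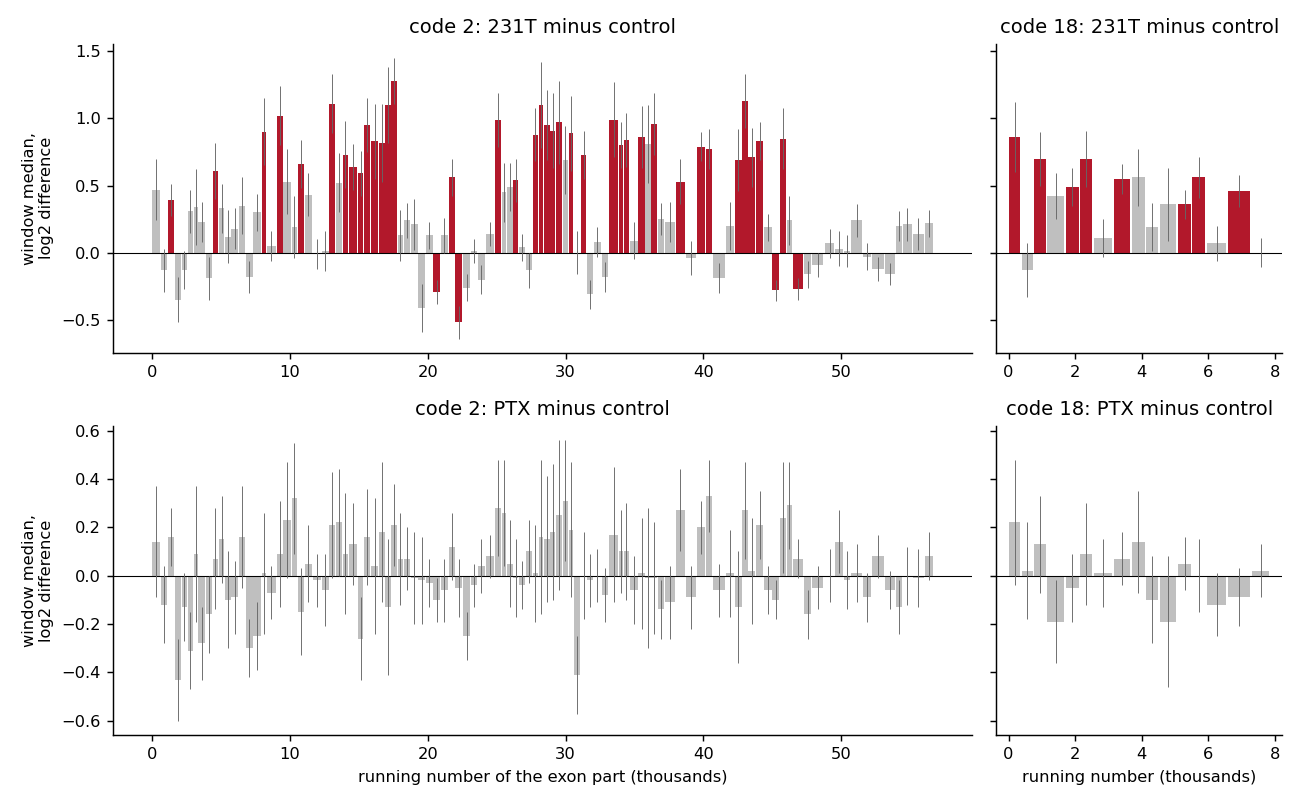
Log2 difference of the window medians (vertical, bars with 1 standard error) along the running number (horizontal, in units of 1000) for codes 2 and 18, 231T minus control above and PTX minus control below. Coloured bars passed limma's adjusted p of 0.05, and no PTX bar did. Numbers up to about the middle hold plus-strand genes and the next ones minus-strand genes.

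No window of codes 2 or 18 was called between PTX and control cells by limma. Their differences ran from -0.43 to 0.33, and 5 of the 119 windows had an unadjusted p under 0.05. The smallest adjusted p was 0.349 in code 2 and 0.824 in code 18. None of the other 1137 windows was called either, and 132 of them had an unadjusted p under 0.05. The lowest window, from RAB10 to CAD, had medians of 3.72, 3.16 and 3.91 in PTX and 4.05, 4.02 and 4.0 in control cells.

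At the level of single exon parts, 69 of the 23684 members passed limma's threshold between PTX and control cells (0.291%), 41 higher and 28 lower. Over all 448953 exon-part and junction probe sets tested the share was 0.38%, with 0.0918% higher and 0.288% lower. Of the 41 higher members 30 were exon parts of FN1, described below. No member was called when any of the 3 control arrays or PTX replicate 2 was left out. The count was 1 with 231T replicate 1 or 2 left out, 4 and 5 for PTX replicates 1 and 3, and 61 for 231T replicate 3. In code 2 the highest called member was PSR02033163, which has no single gene name, with 13.51, 15.13 and 14.22 in PTX and 9.04, 10.83 and 10.57 in control cells (log2 difference 4.13, SE 0.55, adjusted p = 0.0293). The lowest was PSR02003738, also without a gene name, with 6.49, 5.84 and 7.21 in PTX and 10.11, 9.02 and 9.35 in control cells (-2.99, SE 0.42, adjusted p = 0.0316). In code 18 an exon part of SERPINB8, an intracellular serine protease inhibitor, was highest, with 10.90, 10.72 and 10.41 in PTX and 7.44, 8.90 and 8.04 in control cells (2.54, SE 0.41, adjusted p = 0.0446). PSR18000239, without a gene name, was lowest at 8.87, 7.55 and 7.72 in PTX and 11.47, 10.87 and 11.55 in control cells (-3.27, SE 0.40, adjusted p = 0.025). The rule that picked these 4 members required that their PTX and control arrays did not overlap.

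Gene-level records of codes 2 and 18 were called between PTX and control cells at a lower share than the whole table. Of 1444 records 44 were called (3.05%), 14 higher and 30 lower, beside 6.01% of all 18722 records, of which 1.57% were higher and 4.44% lower. The count was 5 without control replicate 3, 7 without PTX replicate 2, 9 and 10 with control replicates 1 and 2 left out, 24 and 28 with 231T replicates 2 and 1 left out, and 123 with PTX replicate 1 left out. Of the 44, 26 carry a single gene name. The highest, TC02002066, has no single name and had 13.22, 14.78 and 13.94 in PTX and 8.60, 10.38 and 10.53 in control cells (log2 difference 4.12, SE 0.56, limma adjusted p = 0.00916). The genes are named whether or not the rule for extreme records picked them, and those outside that rule were chosen after their values were seen.

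FN1, the fibronectin gene, had 10.83, 10.46 and 11.07 in PTX and 8.85, 8.70 and 8.90 in control cells (log2 difference 1.95, SE 0.28, limma adjusted p = 0.0115). All PTX arrays stood above all control arrays. It rose in each of the 14 alternative analyses, with adjusted p from 0.0001 to 0.0467. In 231T cells the record had 9.62, 9.85 and 8.89, above control cells on 2 arrays and within their range on the other.

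RRM2, the small subunit of ribonucleotide reductase, rose with 9.52, 8.74 and 8.85 in PTX and 7.67, 8.10 and 8.18 in control cells (1.04, SE 0.25, adjusted p = 0.0465). TYMS, thymidylate synthase, rose with 12.09, 12.09 and 11.93 in PTX and 10.68, 11.26 and 11.07 in control cells (1.01, SE 0.16, adjusted p = 0.016). Both supply precursors of DNA, and in both the arrays of the groups did not overlap. POLR1A, the largest subunit of RNA polymerase I, rose by 0.51 (SE 0.12, adjusted p = 0.0432) and SLC20A1, a sodium-phosphate transporter, by 1.3 (SE 0.32, adjusted p = 0.0498). SNORA37, a small nucleolar RNA, had 7.71, 9.09 and 8.87 in PTX and 6.51, 6.76 and 6.40 in control cells (1.98, SE 0.33, adjusted p = 0.0169). Of the 14 alternatives, RRM2, POLR1A and SLC20A1 each lost the call in 10, and TYMS and SNORA37 each in 4.

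Records that fell in PTX cells were led among the named ones by CRIM1, a membrane protein that binds bone morphogenetic proteins. It had 12.08, 11.04 and 11.36 in PTX and 13.53, 13.02 and 13.45 in control cells (-1.86, SE 0.35, adjusted p = 0.0245). Its divergent transcript CRIM1-DT, a non-coding RNA that starts beside CRIM1, fell too, with 4.69, 4.77 and 4.69 in PTX and 6.0, 6.61 and 6.53 in control cells (-1.69, SE 0.18, adjusted p = 0.00494). CRIM1-DT kept its call in all 14 alternatives (adjusted p at most 0.0315), and CRIM1 lost it in 6 of them. INHBB, the beta B subunit of inhibin and activin, had 8.10, 7.38 and 7.93 in PTX and 9.35, 9.05 and 9.30 in control cells (-1.45, SE 0.22, adjusted p = 0.014). PTPRM, a receptor tyrosine phosphatase of cell contacts, was the lowest record of code 18, with 9.65, 8.80 and 9.38 in PTX and 10.95, 10.23 and 10.63 in control cells (-1.35, SE 0.29, adjusted p = 0.0358). None of these 4 overlapped between the groups, which for PTPRM was required by the rule for extreme records. INHBB lost its call in 3 of the 14 alternatives and PTPRM in 9.

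The other named records that fell did so by less. Their log2 differences were -0.97 for TMEM214, -0.90 for HSBP1L1 and -0.87 for TMEM150A. FHL2, a LIM-domain protein, fell by 0.59, DES, the muscle intermediate filament desmin, by 0.61, and CIAO1, which helps to place iron-sulphur clusters in proteins, by 0.49. MRPL33, a protein of the mitochondrial ribosome, fell by 0.62, COX7A2L, a factor of respiratory supercomplexes, by 0.59, and MPV17, a protein of the inner mitochondrial membrane, by 0.53. Further ones were LGALSL (-0.86), ITM2C (-0.74), IAH1 (-0.70), MOGS (-0.58), AGBL5 (-0.51), FAHD2A (-0.51) and the pseudogene ANAPC1P2 (-1.13), whose probes may also read its parent gene. Adjusted p-values of these 16 records lay between 0.0191 and 0.0496. Of the 26 named records, 24 lost their call in at least 1 of 14 alternatives, FN1 and CRIM1-DT being the exceptions.

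**Figure D4:**
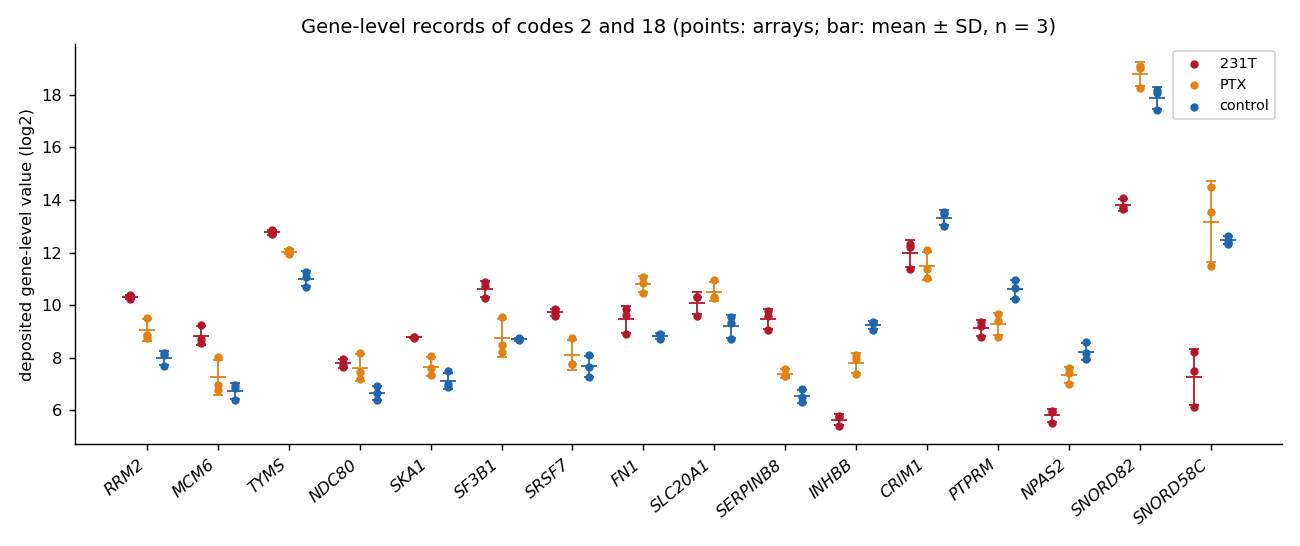
Deposited gene-level values (log2, vertical) of 16 genes of codes 2 and 18 (horizontal) in 231T, PTX and control cells, with a point per array and bars for the mean ± SD (n = 3). RRM2 and TYMS descend from 231T over PTX to control, FN1 is highest in PTX cells, and SNORD82 and SNORD58C are lowest in 231T cells.

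Lists of genes with known roles were read at the gene level, each with its calls between PTX and control cells and its 231T differences as a description. The median record of all codes was -0.06 in PTX minus control and 0.02 in 231T minus control.

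Of the mitosis and replication list all 10 genes were measured. RRM2 and TYMS rose in PTX cells and the other 8 were not called. The median difference of the list was 0.47 in PTX and 1.35 in 231T cells, and 7 of the 10 were called higher in 231T cells beside 23.7% of all records. NDC80 had 7.73, 7.96 and 7.65 in 231T cells, 8.19, 7.46 and 7.20 in PTX cells and 6.38, 6.91 and 6.64 in control cells. SKA1, a microtubule-binding kinetochore protein, had 8.79, 8.79 and 8.76 in 231T cells, 8.04, 7.60 and 7.33 in PTX cells and 6.86, 7.47 and 7.0 in control cells. MCM6 had 8.72, 9.24 and 8.54 in 231T cells, 8.02, 6.96 and 6.75 in PTX cells and 6.38, 6.94 and 6.83 in control cells. For all 3, the 231T arrays were above the control arrays. BUB1, a kinase of the spindle checkpoint, and CENPA, the histone H3 variant of centromeres, moved little, with 231T minus control differences of 0.31 and -0.18. In their exon parts MCM6 had 19 of 21 members called higher in 231T cells, SMCHD1, a chromatin protein of X inactivation, 26 of 48, and BUB1 6 of 34 with 3 lower, beside 17.8% higher and 16.8% lower of all probe sets. The gene-level record of SMCHD1 was 1.49 higher.

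Of the splicing list 8 of 11 genes had a record above the minimum. None was called in PTX cells (median -0.01). In 231T cells 4 were called higher and none lower, beside 23.7% and 21.3% of all records, with a median of 0.45. SF3B1, the core of the U2 particle that reads the branch point, had 10.71, 10.86 and 10.28 in 231T cells, 9.56, 8.20 and 8.47 in PTX cells and 8.65, 8.69 and 8.74 in control cells. SRSF7, a serine/arginine-rich factor, had 9.60, 9.86 and 9.71 in 231T cells, 8.76, 7.77 and 7.77 in PTX cells and 7.27, 8.08 and 7.64 in control cells. All 231T arrays of both genes stood above all control arrays, and the PTX arrays overlapped with them. SNRPG, a protein of the Sm ring, was higher by 0.85 in 231T cells and TXNL4A, a U5 protein, by 0.45. SNRNP27, a tri-snRNP protein, differed by -0.66, without a call. SF3B6, another U2 protein, had 10.97, 10.22 and 10.15 in PTX and 11.42, 11.40 and 11.21 in control cells (-0.92, SE 0.24, limma adjusted p = 0.0572). The exon parts ran the same way for SF3B1, with 29 of 39 members called higher, and for SRSF7, with 17 of 22, beside 17.8% of all probe sets.

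Of the TGF-beta list 6 of 7 genes were measured and none was called in PTX cells. In 231T cells TGIF1, a repressor of SMAD targets, was called lower, beside 21.3% of all records, with 4.97, 5.01 and 4.95 in 231T, 5.16, 5.24 and 5.26 in PTX and 5.53, 5.43 and 5.42 in control cells. SMAD4, the shared mediator, was 0.43 higher and SMAD2 0.33 higher, both without a call.

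Of the adhesion and matrix list 5 of 14 genes had a record above the minimum. FN1 alone was called in PTX cells. The integrin alpha genes ITGAV and ITGA6 were called higher in 231T cells, by 1.28 and 0.81, beside 23.7% of all records. Exon parts of LAMA1, a laminin chain with no record above the minimum, were called higher in 231T cells in 16 of 28 members, beside 17.8% of all probe sets. Their centred medians were 1.59 ± 0.35 in 231T, 0.32 ± 0.15 in PTX and 0.31 ± 0.07 in control cells (SD, n = 3 each). Those of CDH2, the neuronal cadherin, stood at 0.37 ± 0.28 in 231T, 1.21 ± 0.11 in PTX and 1.14 ± 0.30 in control cells.

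Of the cell death list 4 of 6 genes were measured and none was called in PTX cells. In 231T cells 3 were called higher, beside 23.7% of all records, among them genes that block and genes that favour cell death. BCL2, which blocks cell death, had 6.27, 6.13 and 5.83 in 231T cells, 5.45, 5.08 and 5.16 in PTX cells and 5.09, 5.27 and 5.1 in control cells. PMAIP1, which favours cell death, had 9.44, 9.74 and 9.36 in 231T cells, 8.73, 7.86 and 8.04 in PTX cells and 7.84, 8.27 and 8.13 in control cells. CASP8, an initiator caspase, was higher by 0.79, and BCL2L11 differed by 0.03.

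Of the tubulin and motor list, which holds the targets and neighbours of the drug, 6 of 7 genes were measured and none was called in PTX cells. MAPRE3, a protein of growing microtubule ends, came nearest, with 5.46, 5.66 and 6.04 in PTX and 6.23, 6.41 and 6.31 in control cells (-0.62, SE 0.16, adjusted p = 0.0535). TUBB6, a beta tubulin, and TUBA4A, an alpha tubulin, differed by 0.22 and 0.31 in PTX cells. In 231T cells TUBB6 and the dynein chain DYNC1I2 were called higher, by 0.66 and 0.81, and MAPRE3 and the kinesin KIF3C lower, with differences of -0.72 and -0.57, beside 23.7% higher and 21.3% lower of all records.

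FN1 had 87 exon parts, of which 63 passed the minimum and were members. The mean used for that minimum includes the PTX arrays. Exon parts below it differed on both sides of 0 in PTX minus control, with -0.70 in PSR02044135 and 0.25 in PSR02044123. All 63 members were higher in PTX than in control cells, by 0.02 to 2.84 with a median of 2.38. Of these 30 were called higher by limma, beside 0.0918% of all probe sets. In this gene lay 2 runs of at least 3 consecutive called members, of 4 and 3 exon parts. They were the only such runs of codes 2 and 18 in PTX cells, where 17.9% of the called higher members of code 2 lay in runs, beside 20.6% over codes 1 to 22. The run of 4 had medians of 12.54, 12.48 and 12.81 in PTX and 10.30, 10.37 and 10.38 in control cells. In 231T cells the gene was less even. The exon part PSR02044112, near the 3′ end of this minus-strand gene, had 11.11, 11.13 and 10.62 in 231T, 13.73, 13.76 and 14.14 in PTX and 12.03, 12.33 and 12.06 in control cells. At the other end PSR02044199 had 12.41, 13.15 and 11.79 in 231T, 13.46, 13.44 and 13.77 in PTX and 10.87, 10.76 and 11.42 in control cells. In between PSR02044171 had 12.90, 13.31 and 12.04 in 231T, 16.48, 15.88 and 16.49 in PTX and 14.19, 13.64 and 13.85 in control cells. It lay lower on average in 231T than in control cells, without a call. Of the 63 members, 57 were above 0 in 231T minus control, with a median of 1.08. In that comparison 25 were called higher and PSR02044112 alone lower, beside 17.8% higher and 16.8% lower of all probe sets. The 3 exon parts with values here were chosen after their values were seen.

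In SERPINB8 the exon parts fell into 2 stretches. Its first member, PSR18002744, was bright, with 16.21, 16.30 and 15.93 in 231T, 16.73, 15.83 and 16.48 in PTX and 17.41, 16.82 and 17.37 in control cells. The 231T and PTX arrays lay below the control arrays there. The third, PSR18002747, had 5.77, 5.91 and 6.13 in 231T, 5.97, 7.26 and 6.61 in PTX and 6.89, 6.63 and 6.35 in control cells. After these first 3, all 12 were called higher in 231T cells, beside 17.8% of all probe sets, and they formed the longest run of code 18. That run had medians of 11.75, 12.26 and 11.17 in 231T, 8.48, 8.23 and 8.22 in PTX and 6.48, 7.08 and 6.54 in control cells, and the 3 groups did not overlap. PSR18002761 had the highest difference of code 18, with 14.01, 15.14 and 12.39 in 231T, 10.96, 8.92 and 8.79 in PTX and 7.51, 8.27 and 7.95 in control cells. At the gene level SERPINB8 had 9.59, 9.79 and 9.05 in 231T, 7.58, 7.30 and 7.28 in PTX and 6.31, 6.79 and 6.48 in control cells. It was the highest called record of code 18 in 231T cells, and not called in PTX cells (0.84, SE 0.24, adjusted p = 0.078).

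**Figure D5:**
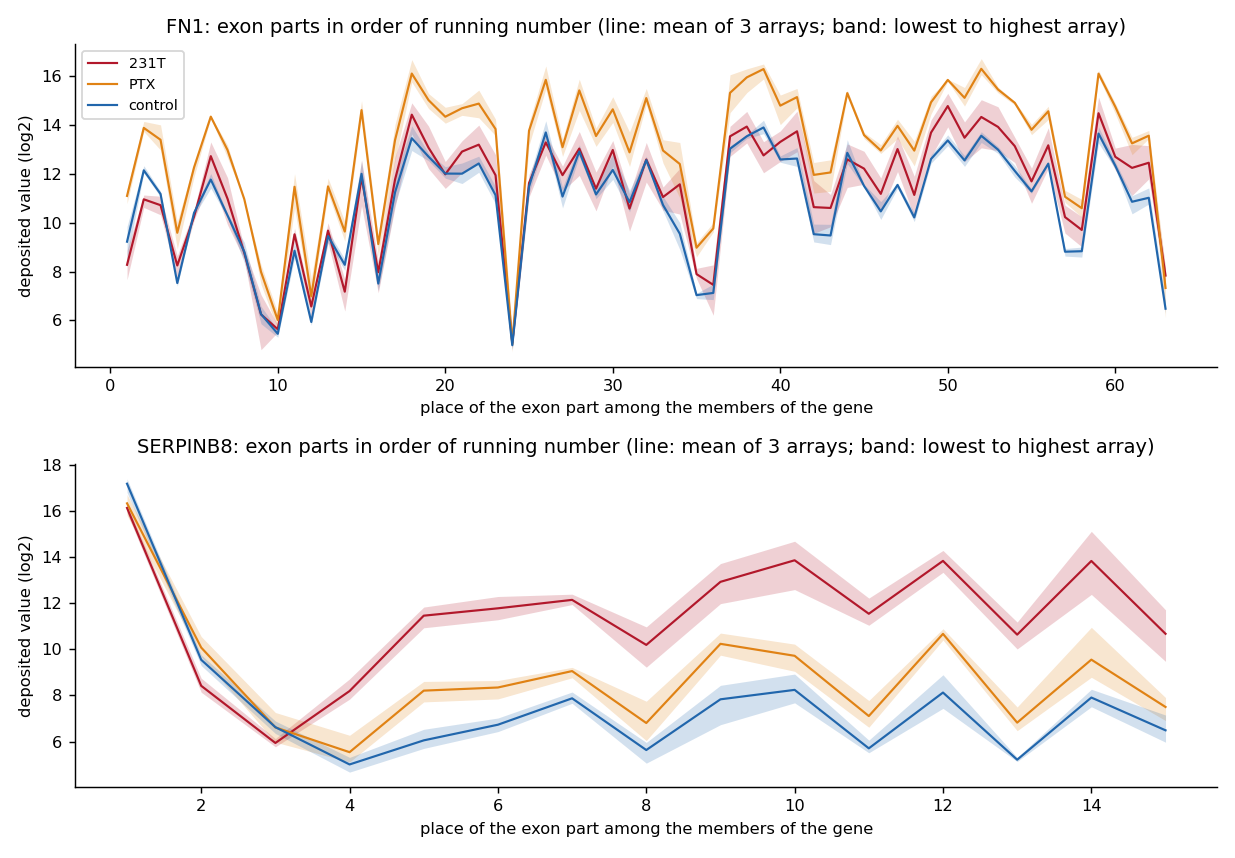
Deposited log2 values (vertical) of the members of FN1 (top) and SERPINB8 (bottom) in order of running number (horizontal), with lines for the mean of 3 arrays and bands from the lowest to the highest array. PTX lies above control in all 63 members of FN1, and the 231T line of SERPINB8 leaves the others after its first 3 members.

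Of the members, 5552 were called higher and 2649 lower in 231T than in control cells (34.6% in all), beside 34.6% of all probe sets tested. In 231T minus PTX 5397 were higher and 2349 lower (32.7%), beside 32.0% of all. The choice of codes 2 and 18 fixes the balance of directions: 23.7% of the members of code 2 and 21.4% of those of code 18 were higher and 11.6% and 8.76% lower, against 18.6% and 16.1% in the other codes. Called members often lay side by side. In code 2, 57.1% of those higher and 32.2% of those lower were in runs of at least 3, and over codes 1 to 22 the shares were 50.1% and 39.0%.

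The longest run of code 2 held 27 exon parts of AOX1, aldehyde oxidase, with medians of 8.05, 8.44 and 7.96 in 231T, 6.09, 5.66 and 5.52 in PTX and 5.36, 5.70 and 5.38 in control cells. Its gene-level values were 6.22, 6.66 and 6.18 in 231T cells, 4.94, 4.80 and 4.68 in PTX cells and 4.67, 4.71 and 4.65 in control cells. The next ones were 26 exon parts of TRIP12, a ubiquitin ligase, and 24 of DDX1, an RNA helicase, 2.63 and 2.96 higher, with gene-level differences of 1.89 and 2.50. Just before AOX1 in the running number stood SGO2, a guardian of centromeric cohesion, whose PSR02017552 had the highest difference of all members of code 2. It had 12.42, 14.23 and 13.99 in 231T cells, 6.39, 6.6 and 5.83 in PTX cells and 6.38, 6.44 and 6.61 in control cells. That was the only one of 11 members of SGO2 called higher in 231T than in control cells, beside 17.8% of all probe sets. The gene-level difference was 0.27.

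The longest run that was lower in 231T cells held 17 exon parts of LTBP1, which stores latent TGF-beta in the matrix, with medians of 7.37, 7.48 and 6.84 in 231T, 10.47, 9.62 and 10.62 in PTX and 9.73, 9.19 and 9.5 in control cells. The gene-level record of LTBP1 had 6.65, 6.69 and 6.31 in 231T, 8.72, 8.20 and 9.04 in PTX and 7.90, 7.46 and 7.60 in control cells, a difference of -1.03 in 231T minus control. It was not called in PTX minus control (0.98, SE 0.25, limma adjusted p = 0.0551). NPAS2, a transcription factor of the circadian clock, had a run of 11 exon parts with a median difference of -4.73 and medians of 8.85, 8.99 and 8.29 in 231T, 11.96, 11.34 and 12.82 in PTX and 13.87, 13.42 and 13.96 in control cells. Its gene-level difference was -2.36. Among called members of code 2 without overlap of arrays, PSR02052215, without a single gene name, was lowest in 231T minus control at -7.6. It had 7.85, 7.19 and 6.33 in 231T, 13.01, 13.27 and 13.95 in PTX and 14.84, 15.38 and 15.16 in control cells. In 231T minus PTX PSR02002275 of SNX17 was lowest at -6.4, with 8.15, 8.15 and 8.66 in 231T and 13.55, 16.06 and 15.8 in PTX cells. The gene-level difference of SNX17 was -0.91 there. In code 18 the longest lower run was 9 exon parts of PTPRM, with medians of 11.73, 11.78 and 10.62 in 231T, 12.71, 11.89 and 12.80 in PTX and 13.78, 13.72 and 14.13 in control cells, and a gene-level difference of -1.41.

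At the gene level 430 of the 1444 records were called higher and 226 lower in 231T than in control cells (45.4%), beside 45.0% of all records. In 231T minus PTX 457 were higher and 211 lower (46.3%), beside 43.7% of all. Among the named records with the highest differences in code 2 was BZW1, which adjusts the choice of start codons, with 13.04, 13.40 and 12.81 in 231T, 12.08, 10.31 and 10.70 in PTX and 9.65, 10.41 and 10.18 in control cells. Further named genes, chosen after their values were seen, were ODC1, the first enzyme of polyamine synthesis, 2.56 higher, and PSMD1, a subunit of the proteasome cap, 2.50 higher. All 18 members of ODC1 were called higher, by 1.52 to 4.89, beside 17.8% of all probe sets. In code 18 SERPINB8 was followed by SEH1L, a nucleoporin, with 12.93, 13.27 and 12.99 in 231T, 10.96, 9.61 and 9.51 in PTX and 10.15, 10.59 and 10.51 in control cells. NARS1, the tRNA ligase for asparagine, was 2.51 higher and SNRPD1, a protein of the Sm ring, 2.20 higher. MALT1, a paracaspase of NF-kappaB signalling, was 1.72 higher and VPS4B, an ATPase of the ESCRT machinery, 1.78 higher.

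INHBB had the most negative difference in 231T cells among the protein-coding records named here, with 5.39, 5.76 and 5.73 in 231T cells and the PTX and control values given above. Its PTX arrays lay between those of 231T and of control cells. Of the 10 highest records of code 2 in 231T cells, 9 carry no single gene name, the highest of them 5.72 above control cells.

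The lowest called record of each code in 231T cells was a small RNA, SNORD82 in code 2 and SNORD58C in code 18. Of 35 records of codes 2 and 18 named as small nucleolar, Cajal body or spliceosomal RNAs, a group chosen after its values were seen, 25 had a mean of at least 5. In 231T minus control 16 of the 25 were below 0, 8 were called lower and 3 higher, beside 21.3% lower and 23.7% higher of all records, with a median of -0.17. In PTX minus control 7 were below 0 and 1 was called higher, SNORA37, beside 1.57% of all, with a median of 0.60. SNORD82 had 13.72, 13.64 and 14.07 in 231T, 18.27, 19.01 and 19.10 in PTX and 17.41, 18.08 and 18.20 in control cells. SNORD58C had 8.21, 7.48 and 6.11 in 231T, 11.50, 13.54 and 14.50 in PTX and 12.32, 12.44 and 12.62 in control cells. SNORD20 and SNORD82 lie in introns of NCL, the gene of nucleolin. SNORD20 differed by -2.51 in 231T cells, while NCL had 12.61, 12.58 and 12.51 in 231T, 12.39, 11.75 and 11.60 in PTX and 11.04, 11.19 and 11.28 in control cells. SNORA75, also of NCL, was 0.94 higher in 231T cells, without a call. Several of these values exceed a mean of 14, where the gene-level difference of all codes also turned negative.

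Relative to the median of their own gene, no member was called between PTX and control cells by limma. This fit was added after the data were seen. It held 17327 members of 973 genes with at least 5 members each. Of these members 1540 had an unadjusted p under 0.05, and 5 of all 178519 exon parts were called (0.0028%). In 231T minus control 2070 members were called higher and 2150 lower than their gene (24.4%), beside 25.4% of all, and in 231T minus PTX 23.1% of the members were called, beside 23.4% of all. The lowest of code 18 were the first 3 members of SERPINB8, with relative differences of -5.92 to -5.48. The highest of code 2 was the SGO2 exon part, 7.63 above its gene. MAP3K20, a kinase of the ribotoxic stress response, had PSR02015460 with 10.34, 9.10 and 9.88 in 231T, 3.81, 4.16 and 3.62 in PTX and 3.22, 5.36 and 3.35 in control cells. In 656 genes of codes 2 and 18 with at least 10 members, the last 20% of the exon parts minus the first 50% had medians of -0.69, -0.62 and -0.67 in 231T cells, -0.35, -0.44 and -0.51 in PTX cells and -0.38, -0.35 and -0.40 in control cells. In 5709 genes of the other codes the medians were -0.70 to -0.68 in 231T, -0.60 to -0.51 in PTX and -0.57 to -0.52 in control cells. The part of this end-of-gene difference in the relative differences of 231T cells was not tested.

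Counted by gene, 949 genes of code 2 and 198 of code 18 had at least 3 members. The median of a gene was above 1 in 231T minus control for 199 and 42 of them and below -1 for 78 and 6. Of 12291 genes of the other codes, 1971 were above 1 and 1247 below -1. In PTX minus control 9 and 2 genes were above 1 (0.948% and 1.01%) and 30 and 3 below -1 (3.16% and 1.52%). In the other codes 1.19% of the genes were above 1 and 4.18% below -1 in PTX minus control. All 231T arrays stood above all control arrays in 34.4% of the genes of code 2 and 40.9% of those of code 18. They stood below in 26.2% and 14.6%, beside 29.6% above and 29.6% below over all 13438 genes. For PTX the shares above were 6.85% and 9.09% and those below 13.6% and 12.6%, beside 7.26% and 15.0% over all genes.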

How the data were processed

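The authors deposited log2 values for 9 exon-level and 9 gene-level records of the same 9 RNAs, and the submitters' processing notes name RMA and, as software, Affymetrix Expression Console in version 1.3.1. Neither a genome build for the array nor whether all arrays were normalized in 1 run is given in the sources used here. Members and gene lists were chosen with earlier results of these data known.

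The median over exon parts (gene level: records) of codes 1 to 22 was subtracted from each array. Features with a mean of at least 5 were fitted with all 3 groups in limma 3.58.1 in R 4.3.3 (lmFit, eBayes), with Benjamini-Hochberg adjustment over the table and a threshold of 0.05. Windows were medians of 200 consecutive members, with at least 100 in the last. Named features were, per code and comparison, the called ones with the highest and lowest difference and no overlap of arrays, the longest runs, the extreme windows, the 10 highest and lowest records in 231T and the listed genes. The fit of exon parts relative to their gene, and the single exon parts named from it, were added after seeing the data. The precision is limited by 3 arrays per group. The fits were tested on simulated data. Replicate numbers do not pair the samples: deviations of same-numbered arrays correlated at -0.18 to 0.07. Alternatives were other minimums, centrings, windows, samples in the fit and arrays left out.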

Additional observations from a re-analysis of the deposited data

How the results depend on the processing

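Counts between PTX and control cells depended most on the setting. The 69 members called became 20 at a minimum of 4, 155 at a minimum of 7, 17 with no minimum, 113 with centring on probe sets with a mean of at least 5, 200 in a fit of exon parts of codes 1 to 22 alone, 192 with array weights and 0 in a fit of the 2 groups alone. With the replicate block the count was also 0, and leaving out an array gave 0 to 61. The 44 records became 6 in the fit of 2 groups, 13 with the replicate block and 448 with array weights, and 5 to 123 without an array. No window was called in limma except 25 with array weights. The 49 windows of 231T minus control became 97 in windows of 100, 18 in windows of 400, 94 with array weights and 12 to 61 without an array. The 35 windows of 231T minus PTX became 55 with quantile normalization, 58 with centring on probe sets with a mean of at least 5 (46 higher, 12 lower, against 33 and 2), 79 in windows of 100, 13 in windows of 400, 53 with means, 1 in the fit of 2 groups, 100 with array weights and 2 to 70 without an array. The 668 records of 231T minus PTX became 1013 with array weights. The 8201 members and 656 records of 231T minus control ran over 5826 to 8728 and 462 to 750 without an array. The shift of code 2 in 231T minus control, 0.36, became 0.10 at a minimum of 4, 0.58 at 7, 0.05 with no minimum, -0.04 without centring and 0.13 in junction probe sets, and 0.30 to 0.47 without an array. For 231T minus PTX, 0.35 became 0.09 at 4, 0.05 with no minimum, -0.07 without centring and 0.03 in junction probe sets. For code 18 in 231T minus control, 0.37 became 0.18 at 4, 0.57 at 7, 0.07 with no minimum, -0.03 without centring and 0.14 in junction probe sets, and for 231T minus PTX 0.40 became 0.14 at 4, 0.73 at 7, 0.05 with no minimum and -0.01 without centring. Of 364 checks of the 26 named records of PTX minus control 189 lost the call and 0 changed direction, and of 52 checks of named exon parts 39 lost it. The causes of these changes were not tested. Replicate numbers do not pair the samples, and calls lost under the replicate block are not read as a weaker effect. With 3 arrays a group the precision is limited by their number.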
